A study of Homo sapiens with 6 samples.

Results

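The genes described are 9 that give epithelial cells their identity and hold them together, CDH1, CDH3, EPCAM, CLDN4, CLDN7, GRHL2, ELF3, ESRP1 and RAB25. They were chosen by name, and the members measured are the peaks of chromatin immunoprecipitation sequencing (ChIP-seq) that touch the hg19 span of each gene or the 5 kb on either side of it, called the window of the gene here. H69M, which the labels describe as derived from H69, was set against H69 itself, the established small cell lung cancer line NCI-H69, so both are cancer lines of 1 origin and neither carries an engineered allele or a treatment in the labels. Each line gave 1 library for acetylation of histone H3 lysine 27 (H3K27ac, antibody ab4729), 1 for trimethylation of the same residue (H3K27me3, clone C36B1) and 1 input. The study set the lines side by side as isogenic cells in work on small cell lung cancers that differ in MHC class I. For the derivation of H69M the labels point to an earlier study, and whether it is 1 clone is not given in the sources used here.

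The 9 windows held 30 of the 51091 H3K27ac peaks of H69M and 17 of the 38255 of H69, and 0 of the 37853 H3K27me3 peaks of H69M and 0 of the 21638 of H69. Together these are 47 of 148837 peaks on chromosomes 1 to 22 and X. A peak is a stretch where the authors' caller found more ChIP signal than its threshold allows, and the score is the authors' own value for it. The scores run from 50 up, and those of H3K27ac pile up at 3100, so peaks at this ceiling cannot be ranked. Read counts do not come with the lists and library depth is unknown, and over all peaks H3K27ac covered 1.59 times as much of the genome in H69M as in H69. With 1 library per group no difference has a replicate check and no test between the lines was made. In cells measured in bulk, a mark carried by fewer cells and a weaker mark in every cell cannot be told apart.

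H3K27ac sits on nucleosomes of active promoters and enhancers, and H3K27me3, written by Polycomb repressive complex 2, sits on silenced genes. Epithelial cells are joined by adherens junctions, whose core is a classical cadherin, and sealed by tight junctions built from claudins. Grainyhead-like and ETS-family transcription factors keep these genes on, and the splicing regulators ESRP1 and ESRP2 give many transcripts their epithelial form. In an epithelial-mesenchymal transition, repressors of the SNAI and ZEB families bind E-boxes, often of the form CACCTG, in promoters such as that of CDH1. The labels give H69 and H69M no epithelial or mesenchymal class, and RNA and protein of these genes were not analysed here.

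Start-site sequences from RefSeq (GRCh38.p14), from 250 bases before to 50 after the annotated start, were found for 4 of the 9 genes, CLDN4, CLDN7, ELF3 and RAB25, and not for CDH1, CDH3, EPCAM, ESRP1 and GRHL2. The rule for showing sequences would have given CDH3, CDH1 and EPCAM. As these had none, all 4 genes with a sequence are shown instead, a choice made after the peak values were seen. CLDN4, CLDN7 and ELF3 carried H3K27ac over the start site in both lines and RAB25 in neither. Capitals mark CACCTG, searched on both strands so that CAGGTG counts too. These positions are on GRCh38.p14, not on the hg19 of the peaks, and the annotated starts may differ from the ends of the hg19 spans.
CLDN7, chr17:7262429-7262728, minus strand: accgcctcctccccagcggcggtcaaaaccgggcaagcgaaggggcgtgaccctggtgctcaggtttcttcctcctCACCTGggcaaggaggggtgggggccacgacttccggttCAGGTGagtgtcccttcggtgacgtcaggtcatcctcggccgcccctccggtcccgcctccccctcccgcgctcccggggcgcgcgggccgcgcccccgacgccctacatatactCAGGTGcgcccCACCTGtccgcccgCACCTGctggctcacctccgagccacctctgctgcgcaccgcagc
ELF3, chr1:202010337-202010636, plus strand: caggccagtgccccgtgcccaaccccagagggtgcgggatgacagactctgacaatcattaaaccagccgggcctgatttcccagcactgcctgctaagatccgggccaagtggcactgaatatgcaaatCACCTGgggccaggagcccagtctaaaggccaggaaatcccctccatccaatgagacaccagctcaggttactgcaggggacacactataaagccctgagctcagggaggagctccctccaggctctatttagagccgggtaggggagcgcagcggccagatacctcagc
CLDN4, chr7:73830746-73831045, plus strand: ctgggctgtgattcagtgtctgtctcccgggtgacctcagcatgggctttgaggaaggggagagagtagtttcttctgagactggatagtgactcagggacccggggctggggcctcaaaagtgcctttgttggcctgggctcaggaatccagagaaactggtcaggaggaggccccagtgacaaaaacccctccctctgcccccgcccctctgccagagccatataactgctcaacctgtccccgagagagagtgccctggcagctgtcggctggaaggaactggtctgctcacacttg
RAB25, chr1:156060910-156061209, plus strand: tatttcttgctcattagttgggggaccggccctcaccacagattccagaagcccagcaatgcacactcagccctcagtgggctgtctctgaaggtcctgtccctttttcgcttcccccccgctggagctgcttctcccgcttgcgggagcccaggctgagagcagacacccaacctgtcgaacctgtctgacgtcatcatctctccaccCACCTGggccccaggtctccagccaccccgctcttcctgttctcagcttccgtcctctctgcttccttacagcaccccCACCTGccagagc

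The CLDN7 sequence held 5 copies of CACCTG, and 0.094% of the 35116 RefSeq start-site sequences of this length hold as many or more. RAB25 held 2 copies, ELF3 held 1 and CLDN4 held 0, and 20.6% of all such sequences hold at least 1. RefSeq lists another start for CLDN7, and the sequence around that one held 0 copies. The grainyhead motif AACCNGTT, searched on both strands, was in 0 of these 5 sequences and in 1.73% of all. The CLDN7 sequence shown was also the richest of the 5 in CpG dinucleotides, with 30, against 9 in RAB25, 7 in ELF3 and 5 in CLDN4 and a median of 14 over all. The CLDN7 sequence shown, with most E-boxes, belongs to a gene whose start site was acetylated in H69M and in H69. The RAB25 sequence, with the next highest number, belongs to a gene whose start site was acetylated in neither. This pairing depends on which CLDN7 start is taken, and CDH1, CDH3 and GRHL2 had no sequence. Whether E-boxes go with the presence or absence of H3K27ac was not tested. A match is a description of letters and shows no binding.

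The first comparison asked where the active mark differed over these genes between H69M and H69. H3K27ac covered far more of the CDH1, CDH3 and GRHL2 windows in H69M, while the windows of EPCAM, CLDN4, CLDN7, ELF3 and ESRP1 were covered over nearly the same length in both lines and RAB25 lay between. The covered length was longer in H69M for 5 of the 9 genes and longer in H69 for 4, and it was longer in H69M for 78.5% of all 50 kb tiles with H3K27ac in either line. The count of 5 rests on small differences, and it was 7 when peaks scoring under 100 were left out and 8 with a flank of 20 kb. The log2 ratio of H69M over H69, with 1000 bp added to each length, was 2 fold or more (1 on the log2 scale) for CDH1, CDH3 and GRHL2 and for 0 genes in the other direction. In the same tiles 23.2% passed that fold toward H69M and 3.37% toward H69. Because the windows run from 11.8 kb for CLDN4 to 187 kb for GRHL2, other tile sizes were looked at as well, and 19.2% of 10 kb tiles and 27.3% of 200 kb tiles passed toward H69M. The median log2 ratio over the 9 genes was 0.18, against 0.41 over the 50 kb tiles. A count of 3 in 9 is thus not far from what all chromosomes show. H69 already covered 79.1% of the CLDN4 window and 75.9% of the ELF3 window. Even full coverage in H69M would leave both below 2 fold, so for them near equality says little about a gain. With 5000 bp in place of 1000 bp added to each length, CDH1 alone passed 2 fold.

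**Figure D1:**
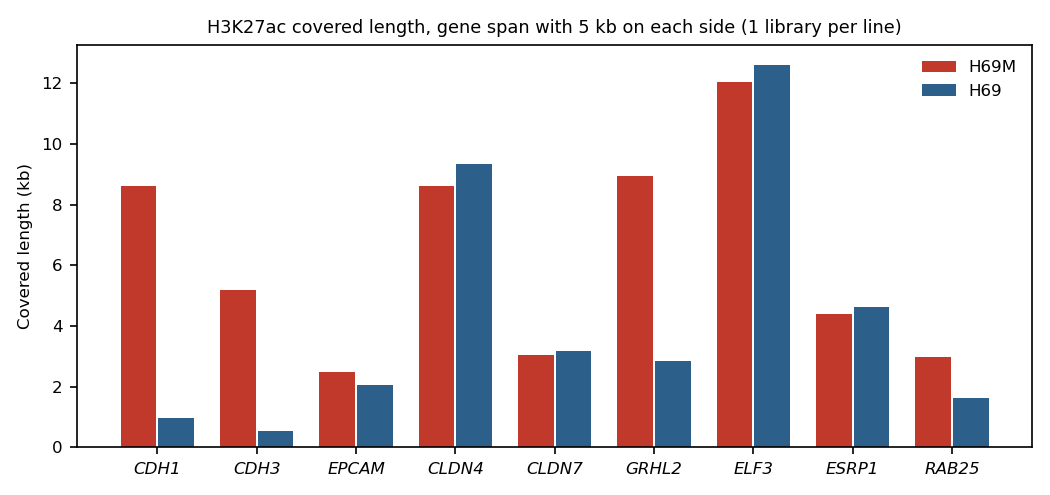
H3K27ac covered length in kb (vertical axis) in each of the 9 gene windows, with H69M in red and H69 in blue; each bar is 1 library, so there is no error bar. CDH1, CDH3 and GRHL2 are covered over 8.63, 5.20 and 8.955 kb in H69M and over 0.959, 0.543 and 2.84 kb in H69, while the bars of ELF3, CLDN4, CLDN7, ESRP1 and EPCAM are close to each other.

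In the CDH1, CDH3 and GRHL2 windows together, a grouping made after the values were seen, H3K27ac covered 22.8 kb in H69M and 4.34 kb in H69. In the other 6 windows together it covered 33.6 kb in H69M and 33.5 kb in H69. This sum includes CLDN4 and ELF3, whose windows were already mostly covered in H69 and had little room for more. Over all 9 windows the sums were 56.3 kb in H69M and 37.8 kb in H69, a ratio of 1.49 that lies close to the 1.59 of the whole lists. Of the length covered in H69, 89.3% was covered in H69M too, and of the length covered in H69M, 59.9% was covered in H69.

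**Figure D2:**
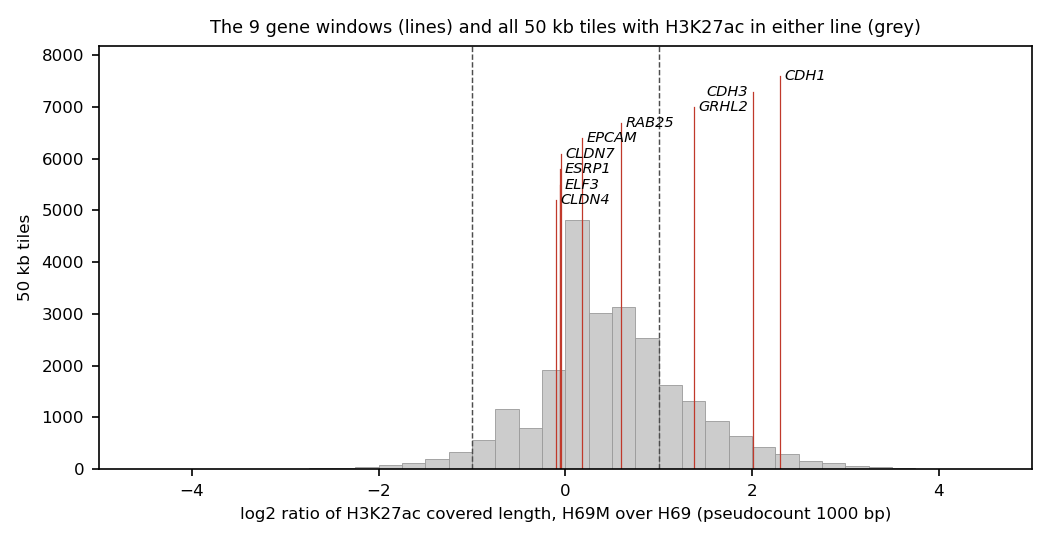
Histogram of the log2 ratio of H3K27ac covered length, H69M over H69, for the 24418 tiles of 50 kb with H3K27ac in either line (grey bars, number of tiles on the vertical axis), with a red line for each gene window and dashed lines at 2 fold either way. CDH1 (2.30), CDH3 (2.01) and GRHL2 (1.38) lie to the right of the dashed line at 2 fold, RAB25 is at 0.59, and the other 5 genes lie between -0.10 and 0.18.

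CDH1 encodes E-cadherin, the classical cadherin of epithelial adherens junctions (hg19, chr16:68771195-68869444, plus strand). Its window held 9 H3K27ac peaks over 8.63 kb in H69M, against 1 peak over 0.959 kb in H69. The H69 peak lay over the start site, from -134 to 824 bp where 0 is the start site and positive values run into the gene, with a score of 134. In H69M the peak at this place ran from -287 to 1246 bp with a score of 307, so it held the whole H69 peak. The start site of CDH1 was therefore marked in both lines, and the line with the single peak already had it there. Neither score is high for its list, since 55.2% of H69M peaks and 39.1% of H69 peaks score lower.

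The other 8 CDH1 peaks of H69M lay inside the gene and overlapped no H69 peak. They began 5485 bp past the start site and the last ended at 41808 bp. From 2 to 25 kb past the start site lay 7 of them, which covered 6.42 kb, and no peak was listed in that stretch in H69. The strongest of them lay from 15191 to 16263 bp with a score of 278, and the next from 23086 to 24276 bp with a score of 205. Between these sat 3 peaks with scores of 125, 129 and 135. The weakest, at 6891 and 5485 bp, scored 50.4 and 56.3, near the lowest score of the list. No H69M peak lay beyond 41808 bp in the window, although the gene is 98250 bp long.

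CDH3, the next gene on the chromosome, encodes P-cadherin, the classical cadherin of basal epithelial cells (hg19, chr16:68678151-68732957, plus strand). H3K27ac covered 5.20 kb of its window in 5 peaks in H69M, and 0.543 kb in 1 peak in H69. That H69 peak, from -1653 to -1111 bp, had a score of 56.0 and overlapped an H69M peak with a score of 160. The strongest CDH3 peak of H69M, from 371 to 2226 bp with a score of 414, had no counterpart in H69, and neither did those at 13672 and 16321 bp inside the gene (scores 147 and 117) or the one from -3290 to -2223 bp (130). Within 1 kb of the start site CDH3 therefore had a peak in H69M and none in H69, a difference that the other 8 genes did not show and that ended when the distance was 2.5 kb, where the peaks before the gene count in both lines. Between the windows of CDH3 and CDH1 lie 28.2 kb, which held 1 peak in H69M and 0 in H69.

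**Figure D3:**
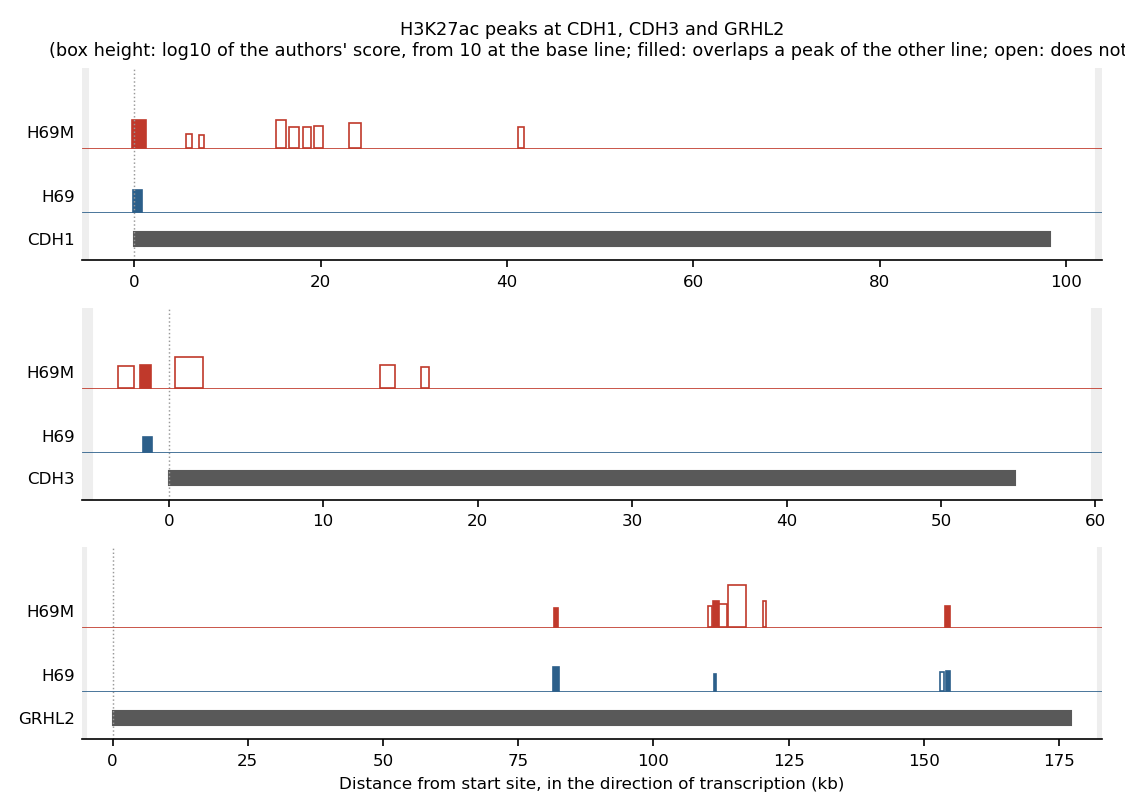
H3K27ac peaks in the windows of CDH1, CDH3 and GRHL2 by distance from the start site in kb (horizontal axis), with H69M above H69 and the gene span as a grey bar; filled boxes overlap a peak of the other line, open boxes do not, and box height is the log10 of the score. Most open H69M boxes of CDH1 lie in the first 25 kb of the gene and most of CDH3 in the first 20 kb, with gaps between them. In GRHL2 they cluster from 110 to 121 kb past a start site with no peak.

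EPCAM encodes the epithelial cell adhesion molecule, a surface protein found on most carcinomas, small cell lung cancer included (hg19, chr2:47596287-47614167, plus strand). Its window held 1 H3K27ac peak in each line, both over the start site and both at the ceiling of 3100. The peak ran from -722 to 1747 bp in H69M and from -642 to 1419 bp in H69, which makes 2.47 kb and 2.06 kb. The log2 ratio was 0.18, and the whole H69 peak lay inside the H69M peak. Unlike the CDH1 and CDH3 windows, the rest of the EPCAM window had no peak in either line.

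The claudins form the strands of tight junctions. CLDN4 (hg19, chr7:73245193-73247014, plus strand) lay wholly under 1 wide peak in each line, from -6114 to 3632 bp in H69M and from -6058 to 3148 bp in H69, both at 3100. At 9747 bp this peak was wider than 99.8% of the H69M list, and at 9207 bp it was wider than 99.9% of the H69 list. H69 had 2 further peaks past the gene, with scores of 50.2 and 72.6, that had no counterpart in H69M. The covered length in the window was 8.63 kb in H69M and 9.35 kb in H69, a log2 ratio of -0.10. METTL27 lies beside CLDN4 in RefSeq, and which of these genes the wide peak belongs to was not tested.

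CLDN7 (hg19, chr17:7163223-7166267, minus strand) had 1 peak in each line, over the start site and most of the short gene. The peak ran from -704 to 2325 bp in H69M with a score of 3100, against -791 to 2371 bp in H69 with a score of 2238. It covered 3.03 kb in H69M and 3.16 kb in H69, so the outline was almost the same, and 95.8% of the H69 length was covered in H69M. ELP5 lies at the far end of CLDN7 in RefSeq, and the peak stopped short of that end in both lines.

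**Figure D4:**
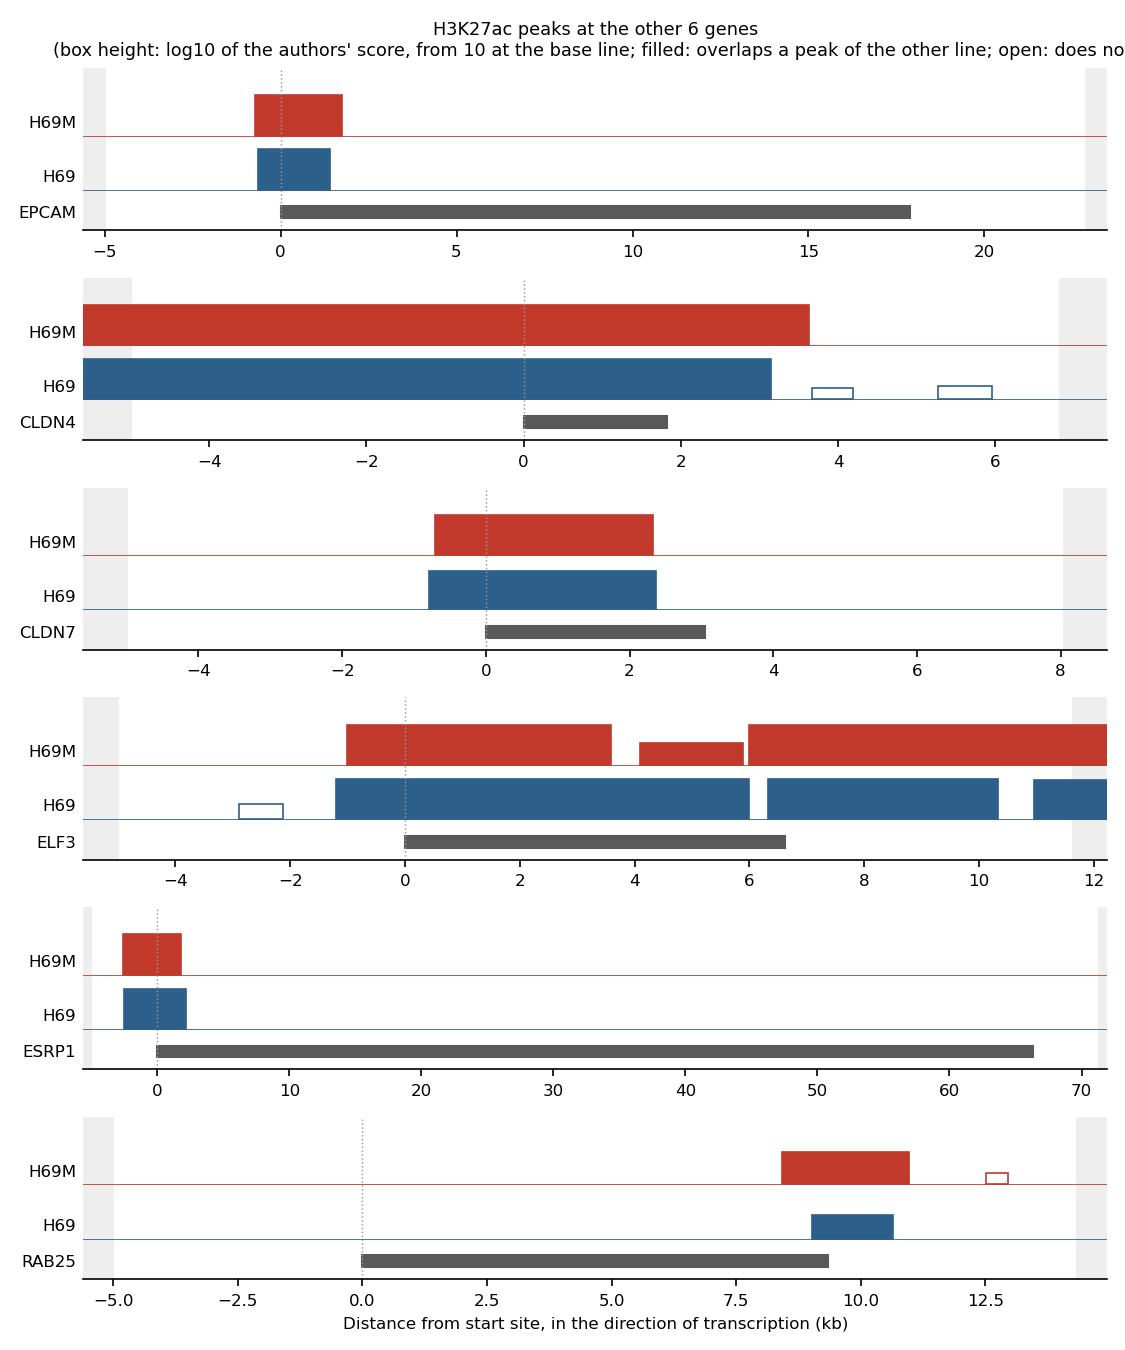
H3K27ac peaks in the windows of EPCAM, CLDN4, CLDN7, ELF3, ESRP1 and RAB25 by distance from the start site in kb (horizontal axis), with H69M above H69, the gene span in grey, box height for the log10 of the score and filled boxes for peaks that overlap one of the other line. In the first 5 genes a filled box covers the start site in both lines; in ELF3 it ends at 3594 bp in H69M and at 5997 bp in H69, and in RAB25 the boxes lie at the far end of the gene.

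Of the regulators, GRHL2 is a grainyhead-like transcription factor that binds and activates CDH1 and claudin genes (hg19, chr8:102504668-102681954, plus strand). Its start site carried no H3K27ac peak within 1 kb in either line. The nearest peak lay 17629 bp before it in H69M and 16410 bp before it in H69, and the first peak in the gene began 81.6 kb past the start site in H69M and 81.5 kb past it in H69. H3K27ac covered 8.955 kb in 7 peaks in H69M and 2.84 kb in 4 peaks in H69, a log2 ratio of 1.38. Most of the surplus lay from 110 to 121 kb past the start site, where H69M had 5 peaks over 7.11 kb and H69 had 1 peak over 0.450 kb with a score of 79.7. The strongest, from 113738 to 117195 bp with a score of 1512 and a width of 3458 bp, overlapped no H69 peak and had the highest score of any peak in the 9 windows listed in 1 line only. Not every GRHL2 peak was wider in H69M, since the one near 82 kb was 808 bp wide in H69M and 959 bp in H69, and 1 of the 4 H69 peaks, near 153 kb with a score of 101, had no counterpart. With a flank of 20 kb in place of 5 kb the log2 ratio of GRHL2 was 0.92, below 2 fold.

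ELF3 is an ETS-family factor of epithelial cells (hg19, chr1:201979690-201986316, plus strand), and its window was among the most densely marked, covered over 72.4% in H69M and 75.9% in H69. The covered length was 12.04 kb in H69M and 12.6 kb in H69, a log2 ratio of -0.06. The lines divided this stretch differently. In H69M a peak from -1007 to 3594 bp and another from 5985 to 14547 bp, both at 3100, had a separate peak with a score of 228 between them. In H69 the peak over the start site ran on to 5997 bp, followed by peaks to 10323 bp and to 14376 bp, with scores of 3100, 3100 and 2474. H69 also had a peak before the gene, with a score of 88.7, that had no counterpart in H69M.

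ESRP1 is the epithelial splicing regulator that sets the epithelial isoforms of FGFR2, CD44 and other transcripts (hg19, chr8:95653364-95719694, plus strand). It had 1 peak at 3100 over the start site in each line, from -2636 to 1776 bp in H69M and from -2505 to 2138 bp in H69. The covered length was 4.41 kb in H69M and 4.64 kb in H69, a log2 ratio of -0.06. In a window of 76.3 kb no other peak was listed in either line. The windows of GRHL2, CDH1 and CDH3, at 187, 108 and 64.8 kb, are the other long ones, and the next is that of EPCAM at 27.9 kb. Window length and the surplus of H69M peaks thus go together in all long windows but that of ESRP1, and whether length plays a part was not tested.

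RAB25 encodes a small GTPase that returns proteins to the apical membrane of epithelial cells (hg19, chr1:156030966-156040305, plus strand). Its start site had no H3K27ac peak within 1 kb in H69M or in H69, and the nearest, with a score of 3100 in each line, ended 5578 bp away in H69M and 5507 bp away in H69, outside the window on the side of LAMTOR2. In the window the mark lay over the end of the gene, from 8424 to 10959 bp with a score of 1013 in H69M, and from 9015 to 10652 bp with a score of 282 in H69. With a weak H69M peak past it (score 54.2), the covered length came to 2.97 kb in H69M and 1.64 kb in H69, a log2 ratio of 0.59. MEX3A follows RAB25 in RefSeq, and whether the mark at the end of RAB25 belongs to either gene was not tested.

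**Figure D5:**
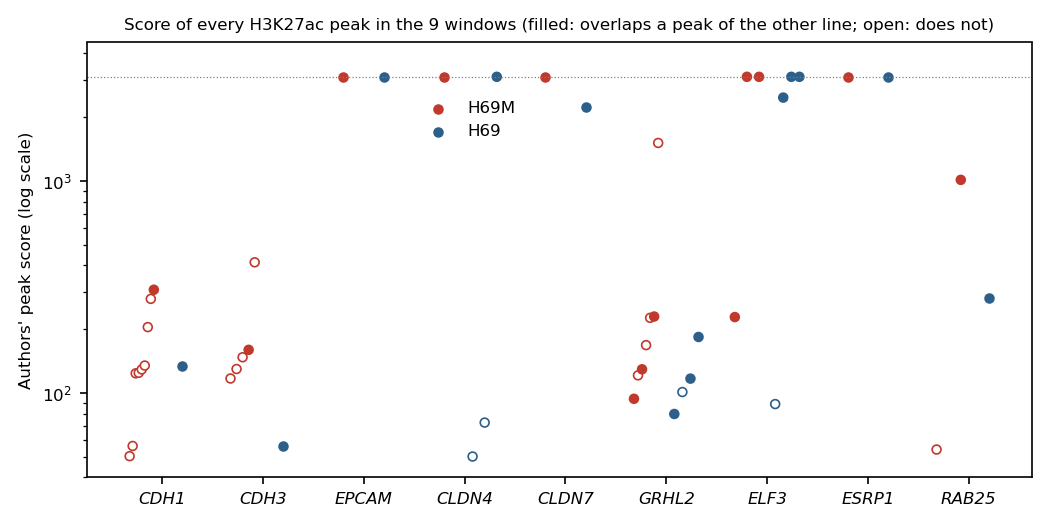
The authors' score of each of the 47 H3K27ac peaks in the 9 windows (log scale, vertical axis), by gene, with H69M in red left of H69 in blue; filled points overlap a peak of the other line and open points do not, and the dotted line is the ceiling of 3100. EPCAM, CLDN4, ELF3 and ESRP1 reach the ceiling in both lines and CLDN7 in H69M, while CDH1 and CDH3 stay at or below 414 and hold mostly open H69M points.

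The 5 genes with a peak at the ceiling, EPCAM, CLDN4, CLDN7, ELF3 and ESRP1, had log2 ratios of covered length between -0.10 and 0.18. Peaks at the ceiling numbered 6 of 30 in H69M, in 5 genes, and 5 of 17 in H69, in 4 genes. Of all H3K27ac peaks, 11.8% in H69M and 8.93% in H69 scored 3100 or more. Of the H69M peaks in the windows, 17 of 30 overlapped no H69 peak (56.7%, exact 95% binomial interval 37.4 to 74.5), against 48.4% of the whole list. Of the H69 peaks, 4 of 17 overlapped no H69M peak (23.5%, 6.81 to 49.9), against 22.5% of the whole list. Both shares are near those of the lists in this setting, and the intervals cover counting error only and treat neighbouring peaks as independent. For H69M the gap was wider with equal numbers of peaks (51.9%, 31.9 to 71.3, against 37.8%). It was also wider with a score of 100 or more (61.5%, 40.6 to 79.8, against 44.3%). An overlap of at least 50% gave 60.0% against 55.2%, and counting peaks within 1000 bp as shared gave 46.7% against 43.1%. Of the 17 H69M peaks without a counterpart, 16 lay in the CDH1, CDH3 and GRHL2 windows and 1 in that of RAB25. They scored from 50.4 to 1512 with a median of 130, and 14 had a score of 100 or more.

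Of the 17 H69M peaks without a counterpart, 14 lay in a gene body beyond 1 kb from the start site, which makes up 81.2% of the length of the 9 windows and 90.8% of those of CDH1, CDH3 and GRHL2, so the count is no sign of a preference for gene bodies. Of the rest, 1 lay within 1 kb of a start site (CDH3), 1 before one (CDH3) and 1 past a gene (RAB25). H3K27ac was listed within 1 kb of 7 of the 9 start sites in H69M and 6 in H69, or of 7 in each line within 2.5 kb, and in both lines the start sites of CDH1, EPCAM, ESRP1, CLDN4, CLDN7 and ELF3 were directly covered. As a yardstick that is not restricted to gene starts, 5.23% of all 2 kb tiles held an H3K27ac peak in H69M and 3.62% in H69. Other genes had no hg19 span here, so whether the 9 start sites differ from gene starts in general was not tested. The start sites of GRHL2 and RAB25 had no H3K27ac peak within 1 kb in either line.

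The second comparison asked whether the silencing mark lay on any of these genes. No H3K27me3 peak was listed in the window of any of the 9 genes, in H69M or in H69, so 0 bp carried both marks, and CDH1 and CDH3 in H69 had little H3K27ac without any listed H3K27me3. Of all 50 kb tiles 18.5% held an H3K27me3 peak in either line, and of those with H3K27ac in both lines 81.3% held none. Absence is thus the common case for a single tile of this size. The windows run from 11.8 to 187 kb, and the share of 81.3% was not taken for tiles of other lengths. H3K27me3 peaks in these lists are narrow and mostly weak, and a domain below the caller's threshold would not be listed.

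The nearest H3K27me3 peak lay 46.7 to 2241 kb from the gene in H69M and 31.3 to 2918 kb in H69, with scores between 52.5 and 79.98 in H69M and between 54.7 and 77.8 in H69. The cadherin pair was the farthest from the mark. The nearest peak to CDH1 was 2241 kb away in H69M and 2782 kb in H69, and to CDH3 2148 kb in H69M and 2918 kb in H69. CLDN4, at 46.7 kb in H69M and 44.3 kb in H69, and ESRP1, at 63.5 kb in H69M and 46.5 kb in H69, lay nearer. For CLDN7 the distance was 81.4 kb in H69M and 31.3 kb in H69, and for GRHL2 it was 796 kb in H69M and 683 kb in H69.

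By the percent of the window covered in the 4 lists, the cadherins resembled each other most, with CDH1 at 7.97% in H69M and 0.886% in H69, and CDH3 at 8.02% in H69M and 0.838% in H69. Their distance was 0.066 percentage points. ELF3, at 72.4% in H69M and 75.9% in H69, and CLDN4, at 73.02% in H69M and 79.1% in H69, formed the next closest pair at 3.23 percentage points. Flanks make up most of the CLDN4 window, so this percent depends on gene length, and the H3K27me3 lists add 0 to every distance.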

How the data were processed

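The files are 4 peak lists, 1 for each antibody library, and no input library was used here. Reads were aligned with Bowtie2 and handled with SAMtools 0.1.19 on hg19, per the submitters' processing notes. Peak names carry the word MACS, but for the caller no version, setting or use of input is stated (not given in the sources used here). The deposited score of each peak has no stated definition and was used only to describe, rank or filter peaks. Where scores of H69M and H69 stand side by side they are a description, as they were not scaled to each other and library depth is unknown.

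Starts were moved to 1-based positions. Peaks on chromosomes 1 to 22 and X were kept. A peak belonged to a gene when it overlapped the hg19 span widened by 5 kb, and covered length was counted within that window. Ratios used pseudocounts of 1000 bp (H3K27ac) and 200 bp (H3K27me3), and 2 fold was called. Peaks overlapping by 1 bp or more were shared. Other genes had no hg19 span here, so all tiles of fixed length served as background. Every one of the 9 genes was named by rule, and single peaks are those at or nearest the start site and with the highest score, plus those found in 1 line only, which were chosen after their values were seen. The genes and comparisons were chosen with earlier results of these data known. Alternatives changed the flank, the score minimum, the numbers of peaks, the pseudocount, the start-site distance and the overlap rule. Intervals are exact binomial. Python 3.11.15, pandas 2.3.3, SciPy 1.17.1 and matplotlib 3.10.9 were used, and the counting steps were tested on simulated data.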

Additional observations from a re-analysis of the deposited data

How the results depend on the processing

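The choices changed were the flank, equal numbers of peaks, a score of 100 or more, the pseudocount, the start-site distance and the overlap rule, and tiles of 10 and 200 kb, chosen after seeing the data, were looked at too. Equal numbers of peaks kept 3 windows past 2 fold in H69M (CDH1 2.09, CDH3 2.01 and GRHL2 1.38 on the log2 scale). With a flank of 20 kb, 8 in place of 5 windows were longer in H69M, since neighbouring sequence with more H3K27ac in H69M enters the CLDN4, CLDN7 and ELF3 windows (log2 ratios of 0.20, 0.38 and 0.36). When peaks scoring under 100 were left out, 7 windows were longer in H69M, with CLDN4 at 0.074 and ELF3 at 0.020. Within 2.5 kb of the start site 7 genes had H3K27ac in H69M and 7 in H69, so the difference at CDH3 was lost. With a pseudocount 5 times larger, 1 in place of 3 windows passed 2 fold in H69M, namely CDH1 at 1.19, while CDH3 was at 0.88 and GRHL2 at 0.83. Over all alternatives the log2 ratio of CDH1 ran from 1.19 to 2.93, of CDH3 from 0.88 to 2.86 and of GRHL2 from 0.83 to 1.59, and 0 windows passed 2 fold in H69. No paired analysis was possible because each group holds 1 library and no test was made. The unknown depth of the libraries limits every comparison of the lines.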
